A study of Mus musculus with 4 samples.

Results

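The heat shock proteins described here were 10 genes chosen by name, *Hspa1a*, *Hspa1b*, *Hspa8*, *Hsph1*, *Hsp90aa1*, *Hsp90ab1*, *Dnajb1*, *Hspb1*, *Hspd1* and *Hspe1*, of the 24012 gene symbols with a value. Each of the 10 had a single entry. Their transcripts were measured by RNA-seq in isolated pancreatic islets of wild type C57bl6 male mice aged 3 months. Islets from the mice were pooled, kept overnight in medium with 11 mM glucose, starved at 2.8 mM glucose for 2 h, and then divided into islets that stayed at 2.8 mM glucose and islets moved to 16.8 mM, with 2 libraries per group. The study's design text gives 12 h for this last step in both groups. The labels of the samples instead put the low glucose islets at 2 h and the high glucose islets at 12 h, and if the labels are right, the time and the glucose concentration cannot be told apart. Since the islets came from a pool, p-values here measure the spread between libraries, which may be technical.

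Heat shock proteins are molecular chaperones: they bind unfolded or partly folded proteins, hold them in solution and, with ATP, help them fold. HSP70 proteins take hold of short exposed stretches of a client, J-domain proteins such as DNAJB1 deliver the client and start ATP hydrolysis, and exchange factors such as HSPH1 reset the cycle. HSP90 then matures many kinases and steroid receptors. Some of these genes are on at all times, whereas others are induced when the factor HSF1 binds heat shock elements, runs of the unit GAA and its reverse complement TTC, before their start sites. In beta cells, the demand for insulin synthesis places most of the folding load in the endoplasmic reticulum, which has its own HSP70 and HSP90 proteins. *Hspd1* and *Hspe1* do not encode cytosolic proteins: HSP60 and HSP10 form the chaperonin of the mitochondrial matrix, so 8 of the 10 genes belong to the cytosol.

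Expression was in RPKM, reads scaled to the length of the gene in kilobases and to the depth of the library. The values behave as whole reads divided by the genomic span of a gene, with introns in the length, so that genes with long introns have low RPKM values and levels of different genes below are per kilobase of genomic span unless exons are named. The study's methods describe counting reads in RefSeq exons, and whether intronic reads were counted for these libraries is not known. Estimated depth was between 50800000 and 60700000 reads per library. The libraries held high levels of beta cell hormone and identity genes, with 8 of 8 beta cell markers detected in every library. The summed level of 10 acinar markers was 106 and 300 RPKM in the 2.8 mM libraries and 256 and 529 RPKM in the 16.8 mM libraries, and the summed level of 8 beta cell markers was 22913 and 20565 RPKM at 2.8 mM and 43730 and 40959 RPKM at 16.8 mM. Summed duct markers were between 19.3 and 24.3 RPKM, alpha cell markers between 1486 and 2172 RPKM, delta and PP cell markers between 1169 and 1831 RPKM, macrophage and leukocyte markers between 12.8 and 18.5 RPKM with *Cd3e* at 0 in a library, and endothelial and stromal markers under 5 RPKM. The part of these differences in the results below was not tested, and in whole islets fewer cells of a type and less RNA per cell cannot be told apart.

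The promoters of these genes were compared with the letters that HSF1 is known to bind, and only exact matches were counted. Windows of 300 bases around the RefSeq start sites (GRCm38.p6), from 250 bases before to 50 after the start, were matched for 7 of the 10 genes, and *Hspa8*, *Hsp90aa1* and *Hsp90ab1* were not matched. They were searched on both strands for 2 adjacent heat shock units, GAANNTTC or TTCNNGAA, and for 3 adjacent units, GAANNTTCNNGAA or TTCNNGAANNTTC, with overlaps counted. Of 32851 RefSeq promoters of this length, 15.1% held the 2-unit motif and 0.6% the 3-unit motif. The sequences of *Hspa1a* (chr17:34972107-34972406, minus strand), *Hspa1b* (chr17:34959189-34959488, minus strand), *Hspb1* (chr5:135887669-135887968, plus strand) and *Hspe1* (chr1:55087898-55088197, plus strand) are given 5′ to 3′ with the 2-unit motifs in capitals, the first pair to show how alike the inducible HSP70 copies are and the others to show different arrangements of the units.
Hspa1a: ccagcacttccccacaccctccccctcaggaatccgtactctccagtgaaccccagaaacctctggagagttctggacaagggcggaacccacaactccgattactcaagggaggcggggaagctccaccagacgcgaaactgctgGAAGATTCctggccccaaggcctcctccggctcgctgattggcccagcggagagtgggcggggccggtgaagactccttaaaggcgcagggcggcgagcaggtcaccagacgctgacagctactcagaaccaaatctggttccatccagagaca
Hspa1b: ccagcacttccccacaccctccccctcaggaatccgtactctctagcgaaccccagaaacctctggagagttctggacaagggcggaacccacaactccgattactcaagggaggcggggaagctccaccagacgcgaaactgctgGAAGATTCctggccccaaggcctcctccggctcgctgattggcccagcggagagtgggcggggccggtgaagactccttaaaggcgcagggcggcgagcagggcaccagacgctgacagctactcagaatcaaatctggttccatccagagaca
Hspb1: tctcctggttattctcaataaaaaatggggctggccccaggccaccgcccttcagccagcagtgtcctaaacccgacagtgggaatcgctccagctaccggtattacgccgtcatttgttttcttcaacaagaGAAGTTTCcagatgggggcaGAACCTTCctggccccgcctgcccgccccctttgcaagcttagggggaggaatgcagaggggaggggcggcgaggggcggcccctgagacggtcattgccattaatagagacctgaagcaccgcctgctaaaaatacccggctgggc
Hspe1: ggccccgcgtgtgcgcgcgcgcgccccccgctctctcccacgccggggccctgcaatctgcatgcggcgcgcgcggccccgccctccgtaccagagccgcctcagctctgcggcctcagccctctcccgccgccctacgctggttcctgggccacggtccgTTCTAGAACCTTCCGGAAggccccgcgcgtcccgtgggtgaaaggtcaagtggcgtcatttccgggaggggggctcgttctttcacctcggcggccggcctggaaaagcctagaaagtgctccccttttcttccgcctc

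*Hspa1a* and *Hspa1b* had the same single 2-unit motif, starting 104 bases before the start site, and their windows were identical at 296 of 300 positions. Counted from 1 at the 5′ end of the window, with the *Hspa1a* base first, the differences were C44T, T47C, T249G and C276T. *Hspb1* had 2 separate 2-unit motifs, 117 and 97 bases before its start. *Hspe1* had a run in which 3 overlapping 2-unit motifs made 2 overlapping 3-unit motifs, starting 89, 84 and 79 bases before its start. *Hspd1* lies on the opposite strand and shares this region, so that the same run lay 144 to 134 bases before a start site of *Hspd1* in 1 of its 2 windows, and the other window held neither motif. *Hsph1* held 3 of the 2-unit motifs and 1 of the 3-unit motif, the latter after the start site, and the 2 windows of *Dnajb1* held neither. The second *Dnajb1* window (chr8:83608298-83608597, plus strand) lies wholly after the start site of the first, so that it is not upstream sequence for that start. These matches describe letters in the windows only.

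At 16.8 mM glucose, 6 of the 10 transcripts fell, 1 rose and 3 did not pass the test. The transcripts that fell were those of constitutive HSP70 (*Hspa8*), both HSP90 genes, HSP110 (*Hsph1*) and both subunits of the mitochondrial chaperonin, to between 38.3% (*Hspa8*) and 62.7% (*Hsph1*) of their 2.8 mM levels. The transcript that rose was that of the small heat shock protein *Hspb1*, to 133% of its level at 2.8 mM. The inducible HSP70 pair *Hspa1a* and *Hspa1b* and the J-domain gene *Dnajb1* did not pass. In the same limma model of log2(RPKM + 0.5), 33.4% of 7867 transcripts passed at an adjusted p under 0.05, 22.8% (1790) lower and 10.7% (838) higher at 16.8 mM. With quantile normalization 47.4% of transcripts passed, 2154 lower and 1576 higher, and with median centring 47.9%, 2103 lower and 1662 higher, while 7 of the 10 genes passed with either. Of the calls, 31.9% were higher, a share that was 42.3% after quantile normalization and 44.1% after median centring, and these scalings moved the median change over all tested transcripts (log2 scale) from -0.11 to -0.04 and -0.03. The median log2 fold change of the 10 genes was -0.72. The 2 groups of libraries did not overlap for 8 of the 10 genes, and for 70.4% of all transcripts tested.

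**Figure D1:**
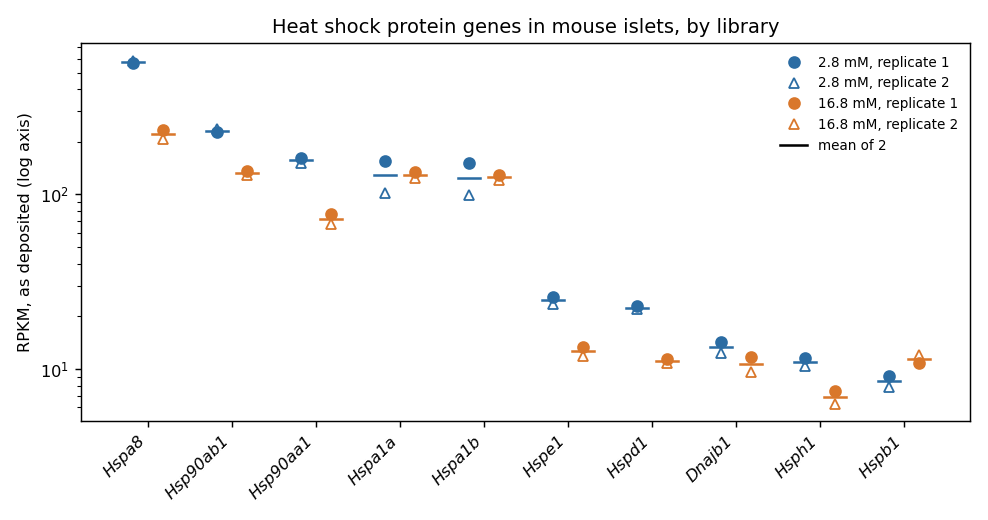
Deposited RPKM (log axis) of the 10 heat shock protein genes in each library, with 2.8 mM glucose in blue, 16.8 mM in orange, circles for replicate 1, triangles for replicate 2 and lines for the mean of 2. *Hspa8* was at 568 and 586 RPKM at 2.8 mM against 234 and 209 at 16.8 mM, whereas the *Hspa1a* values at 2.8 mM, 156 and 101, lay on either side of those at 16.8 mM.

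*Hspa8* encodes HSC70, the HSP70 protein that cells make without stress and that also uncoats clathrin vesicles. Its gene lies at chr9:40609067-40613283 (mm9, plus strand) and has 9 exons, with 3 snoRNA genes (*Snord14c*, *Snord14d* and *Snord14e*) inside it. *Hspa8* was at 568 and 586 RPKM in the 2.8 mM libraries and at 234 and 209 RPKM in the 16.8 mM libraries. Both 16.8 mM libraries were below both 2.8 mM libraries, and the gap was many times the distance between replicates. The mean fell from 577 ± 13.2 to 221 ± 17.7 RPKM (SD, n = 2 each), a log2 fold change of -1.38 (SE 0.13, 95% interval -1.69 to -1.08, limma adjusted p = 0.00065). Of the 10 genes, *Hspa8* had the highest level in every library and the lowest log2 fold change. It stood at rank 16 of 24012 genes by mean level at 2.8 mM and at rank 32 at 16.8 mM.

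The inducible HSP70 genes *Hspa1a* (chr17:35106144-35109069) and *Hspa1b* (chr17:35093381-35096183) lie 9961 bases apart on the minus strand (mm9), and each has a single exon. Their proteins are almost absent from many unstressed cells and accumulate after heat or proteotoxic stress. *Hspa1a* was at 156 and 101 RPKM at 2.8 mM and at 134 and 125 RPKM at 16.8 mM. *Hspa1b* was at 151 and 99.4 RPKM at 2.8 mM and at 130 and 121 RPKM at 16.8 mM. For both genes the 16.8 mM libraries lay between the 2.8 mM libraries. The log2 fold change was 0.04 for *Hspa1a* (SE 0.21, 95% interval -0.46 to 0.53, limma adjusted p = 0.90) and 0.03 for *Hspa1b* (SE 0.20, 95% interval -0.45 to 0.52, limma adjusted p = 0.91). These intervals exclude a fall as large as that of *Hspa8*, but not a fall as large as that of *Dnajb1* nor a rise as large as that of *Hspb1*.

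The width of these intervals came from the 2.8 mM libraries. *Hspa1a* was 0.62 higher on the log2 scale in replicate 1 than in replicate 2 at 2.8 mM, against 0.10 at 16.8 mM, and 3.14% of tested transcripts differed more between the 2.8 mM replicates. Without replicate 1 at 2.8 mM the *Hspa1a* log2 fold change was 0.35, and without replicate 2 it was -0.27. For *Hspa1b* these values were 0.33 and -0.27. Fits with a library left out leave a single library in a group, so only their log2 fold changes are given for single genes. The direction also turned without replicate 1 at 16.8 mM, at -0.01 for *Hspa1a* and -0.02 for *Hspa1b*, and after quantile normalization. The 2 genes are not independent readings, since 59.4% of the 50-base windows in *Hspa1a* also occur in *Hspa1b*, and their ratio was between 1.02 and 1.04 in all libraries. *Hspa1a* is also overlapped on the other strand by *Gm20481*, and the library kit does not mark strand, so that reads from these genes cannot be told apart.

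The HSP90 genes code for the constitutive isoform, HSP90 beta (*Hsp90ab1*), and for HSP90 alpha (*Hsp90aa1*), which is the more stress-responsive. *Hsp90ab1* (chr17:45704724-45710220, mm9, minus strand, 11 exons) was at 227 and 237 RPKM at 2.8 mM and at 136 and 129 RPKM at 16.8 mM. *Hsp90aa1* (chr12:111928815-111934605, mm9, minus strand, 11 exons) was at 162 and 152 RPKM at 2.8 mM and at 77.5 and 67.3 RPKM at 16.8 mM. Neither gene's groups overlapped. *Hsp90ab1* fell from 232 ± 7.19 to 132 ± 4.73 RPKM (SD, n = 2 each), a log2 fold change of -0.81 (SE 0.13, limma adjusted p = 0.0044). *Hsp90aa1* fell from 157 ± 6.65 to 72.4 ± 7.16 RPKM (SD, n = 2 each), a log2 fold change of -1.11 (SE 0.14, limma adjusted p = 0.0018). The ratio of *Hsp90ab1* to *Hsp90aa1* was 1.41 and 1.56 at 2.8 mM and 1.75 and 1.92 at 16.8 mM. The ratio was thus higher in both 16.8 mM libraries, and the difference between the 2 genes' changes was not tested.

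Among the proteins that serve HSP70, *Hsph1* codes for HSP110, which exchanges ADP for ATP on HSP70, and *Dnajb1* for HSP40, which loads clients. *Hsph1* (chr5:150419119-150438913, mm9, minus strand, 18 exons) was at 11.5 and 10.4 RPKM at 2.8 mM and at 7.41 and 6.31 RPKM at 16.8 mM, with no overlap. It fell by 0.64 on the log2 scale (SE 0.12, limma adjusted p = 0.0091), and the call was lost without a minimum RPKM, where all entries were tested (adjusted p = 0.068). *Dnajb1* (chr8:86132074-86135801, mm9, plus strand, 3 exons) was at 14.3 and 12.2 RPKM at 2.8 mM and at 11.7 and 9.55 RPKM at 16.8 mM. The groups of *Dnajb1* did not overlap, but replicates differed by nearly as much as the group means did. Its log2 fold change of -0.31 (SE 0.14, 95% interval -0.65 to 0.03) had a limma adjusted p of 0.139. The log2 fold change turned on single libraries. It was -0.42 without replicate 2 and -0.20 without replicate 1 at 2.8 mM. Without replicate 1 at 16.8 mM it was -0.45, and without replicate 2 at 16.8 mM -0.17.

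*Hspb1* codes for a small heat shock protein, known as HSP25 in mouse, that holds unfolded proteins without using ATP and protects actin filaments. It was the only one of the 10 genes that was higher at 16.8 mM by the test. *Hspb1* (chr5:136363888-136365431, mm9, plus strand) was at 9.12 and 7.90 RPKM at 2.8 mM and at 10.7 and 12.0 RPKM at 16.8 mM. Both 16.8 mM libraries were above both 2.8 mM libraries. The mean rose from 8.51 ± 0.86 to 11.4 ± 0.88 RPKM (SD, n = 2 each), a log2 fold change of 0.40 (SE 0.13, 95% interval 0.10 to 0.69, limma adjusted p = 0.0479). Without replicate 1 or replicate 2 at 2.8 mM, the log2 fold change was 0.49 or 0.30. Without replicate 1 or replicate 2 at 16.8 mM, it was 0.47 or 0.32. The call was close to the threshold. It was lost without a minimum RPKM (limma adjusted p = 0.127), with 0.1 RPKM added (adjusted p = 0.0513) and with a replicate block (adjusted p = 0.06). It rested on the fewest reads of the 10 genes, an estimated 634 to 1010 per library.

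**Figure D2:**
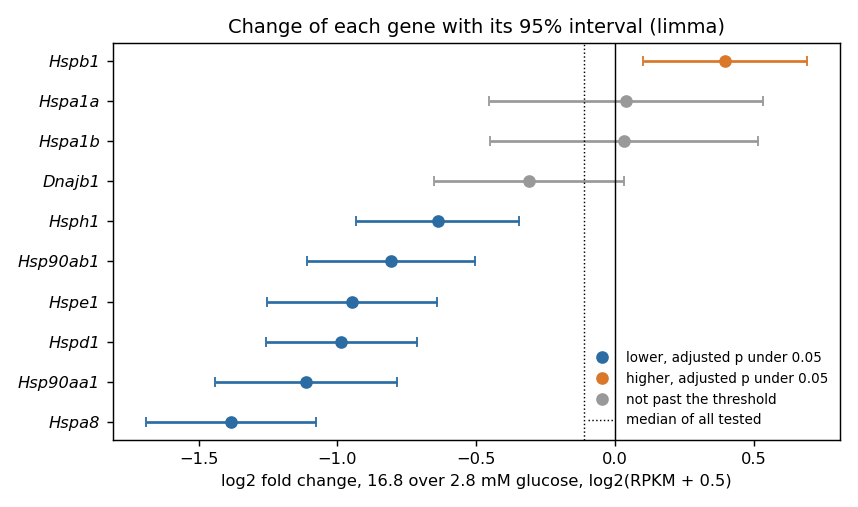
Log2 fold change at 16.8 mM over 2.8 mM glucose of log2(RPKM + 0.5) for each of the 10 genes, with points for the limma estimate, bars for its 95% interval and a dotted line at the median of all transcripts tested. The intervals of *Hspa8*, *Hsp90aa1*, *Hspd1*, *Hspe1*, *Hsp90ab1* and *Hsph1* lie below 0, that of *Hspb1* above it, and those of *Dnajb1*, *Hspa1b* and *Hspa1a* include it.

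*Hspd1* and *Hspe1* encode the barrel and the lid of the mitochondrial chaperonin, which encloses proteins newly imported into the matrix. The genes lie head to head on chromosome 1, *Hspd1* at chr1:55134679-55144868 (mm9, minus strand, 12 exons) and *Hspe1* at chr1:55144976-55148151 (mm9, plus strand, 4 exons). *Hspd1* was at 22.8 and 21.9 RPKM at 2.8 mM and at 11.3 and 10.7 RPKM at 16.8 mM. *Hspe1* was at 26.0 and 23.5 RPKM at 2.8 mM and at 13.4 and 11.8 RPKM at 16.8 mM. Both genes were lower in each 16.8 mM library than in either 2.8 mM library, by close to the same factor. *Hspd1* fell by 0.99 on the log2 scale (SE 0.12, limma adjusted p = 0.0015), to 49.4% of its 2.8 mM level, and *Hspe1* fell by 0.95 (SE 0.13, limma adjusted p = 0.0026), to 50.9%. The ratio of *Hspe1* to *Hspd1* was 1.14 and 1.07 at 2.8 mM and 1.18 and 1.10 at 16.8 mM. A longer annotated form of *Hspd1* overlaps the start of *Hspe1* on the other strand, and without strand in the reads those in the overlap cannot be told apart.

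Of the 10 genes, the order of levels per kilobase of genomic span at 2.8 mM was *Hspa8*, *Hsp90ab1*, *Hsp90aa1*, *Hspa1a*, *Hspa1b*, *Hspe1*, *Hspd1*, *Dnajb1*, *Hsph1* and *Hspb1*. At 2.8 mM the libraries of *Hsp90aa1* overlapped those of *Hspa1a*, and those of *Hspa1a* overlapped those of *Hspa1b*, so these neighbours did not differ beyond their spread. At 16.8 mM *Hspa1a* and *Hspa1b* stood above *Hsp90aa1* on the span scale, without overlap of libraries, whereas *Hspd1*, *Hspb1* and *Dnajb1* overlapped. Rescaled to the length of the annotated exons, a rough estimate that takes every read as exonic, *Hspa8* had a mean of 1016 RPKM at 2.8 mM and 389 RPKM at 16.8 mM. On that exon scale *Hsp90ab1* had 506 and 289 RPKM, *Hsp90aa1* 277 and 128 RPKM, *Hspa1a* 129 and 129 RPKM, *Hspa1b* 125 and 125 RPKM, *Hspe1* 102 and 51.6 RPKM and *Hspb1* 14.1 and 18.8 RPKM. *Hspd1* had 94.0 and 46.4 RPKM, *Hsph1* 57.0 and 35.7 RPKM and *Dnajb1* 21.9 and 17.5 RPKM. In both groups *Hsph1* thus stood above *Dnajb1* by exons and below it by span. *Hspa8* had rank 1 on either scale in both groups. At 16.8 mM on the span scale the libraries of *Hsp90ab1* overlapped those of *Hspa1a* and *Hspa1b*, and the place of *Hspa1b* below or above *Hsp90aa1* at 16.8 mM turned with the scale. By exons, *Hsp90aa1* was at 137 and 119 RPKM in the 16.8 mM libraries. These overlapped *Hspa1a*, at 134 and 125 RPKM, and *Hspa1b*, at 130 and 121 RPKM.

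On the span scale, the make-up of the summed transcripts differed between glucose concentrations. At 16.8 mM a smaller share came from *Hspa8* and a larger share from the inducible pair. The single-exon pair keeps its full level on this scale, whereas *Hspa8* at 2.8 mM had 577 RPKM by span and 1016 RPKM by exons. By exons, the shares of the pair would thus be smaller in every library. Reads that fit both copies may also have been counted for each. The 10 genes together had 1347 and 1253 RPKM at 2.8 mM and 765 and 701 RPKM at 16.8 mM, a mean of 1300 ± 66.6 against 733 ± 45.3 RPKM (SD, n = 2 each). *Hspa8* made up 42.2% and 46.8% of that sum at 2.8 mM and 30.5% and 29.8% at 16.8 mM. *Hspa1a* and *Hspa1b* together made up 22.8% and 16.0% at 2.8 mM and 34.4% and 35.0% at 16.8 mM. The ratio of *Hspa8* to *Hspa1a* was 3.64 and 5.78 at 2.8 mM and 1.75 and 1.67 at 16.8 mM. The shares and the ratio did not overlap between the groups, but for the ratio the 2.8 mM replicates differed by more than the nearest libraries of the groups did, and the sums of the inducible pair, 307 and 201 RPKM at 2.8 mM and 263 and 246 RPKM at 16.8 mM, overlapped. Without the inducible pair, the remaining 8 genes had 1046 ± 8.33 RPKM at 2.8 mM and 478 ± 32.6 RPKM at 16.8 mM (SD, n = 2 each).

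**Figure D3:**
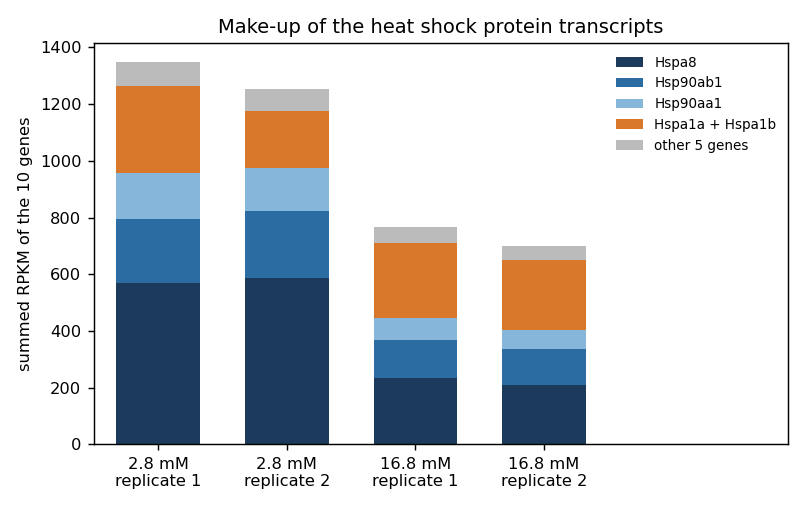
Summed RPKM of the 10 genes in each library, per kilobase of genomic span (linear axis from 0). Blocks are stacked as *Hspa8*, *Hsp90ab1*, *Hsp90aa1*, the sum of *Hspa1a* and *Hspa1b*, and the other 5 genes. The stack is 1347 and 1253 RPKM tall at 2.8 mM and 765 and 701 RPKM at 16.8 mM, and the *Hspa1a* and *Hspa1b* block takes 34.4% and 35.0% of the 16.8 mM stacks.

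Other chaperone genes were grouped by role. Of 78 that were tested, 37 passed, 34 lower and 3 higher at 16.8 mM, with a median log2 fold change of -0.29, beside the 33.4% of all transcripts that passed. The split depended on the scaling: with quantile normalization 42 were lower and 10 higher, and with median centring 40 were lower and 10 higher. Without a minimum RPKM 25 of 99 passed, 23 lower and 2 higher, beside 9.1% of all transcripts in that fit. In the cytosolic HSP70 system, which holds further HSP70 proteins, J-domain proteins and exchange factors, 9 of 23 tested genes fell and 2 rose, with a median of -0.22. *Hspa2*, an HSP70 protein best known from the testis, fell by 0.91 on the log2 scale (SE 0.11, limma adjusted p = 0.0017), and *St13*, which codes for the HSP70-interacting protein Hip, fell by 0.79 (SE 0.09, limma adjusted p = 0.0016). *Bag3* rose by 0.63 (SE 0.09, limma adjusted p = 0.0027), from 0.94 and 0.87 RPKM to 1.80 and 1.57 RPKM. Both genes of this list that rose, *Bag3* and *Bag2*, averaged under 1 RPKM at 2.8 mM (0.91 and 0.83 RPKM). They met the minimum for testing only through the 16.8 mM libraries, so these calls depend on the group where the genes were high. Of those that fell, *Dnajc2* and *Hspa4l* met it only through the 2.8 mM libraries. BAG3 is an HSP70 exchange factor that also binds small heat shock proteins and feeds clients to autophagy. Of the small heat shock proteins other than *Hspb1*, 3 were tested. With all libraries kept and without a replicate block, 0 passed by limma or by voom. With the block, 1 of the 3 passed by limma and by voom. At an unadjusted p under 0.05 and without the block, 1 of the 3 passed by limma and 0 by voom. That gene, *Cryab*, named after its values were seen, had a log2 fold change of 0.34 (limma adjusted p = 0.085). This value turned on single libraries. Without replicate 1 or replicate 2 at 2.8 mM, the log2 fold change was 0.22 or 0.47. Without replicate 1 or replicate 2 at 16.8 mM, it was 0.50 or 0.18. Such fits leave a single library in a group, so no calls from them are given for this gene.

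Of the co-chaperones of HSP90, 6 of 13 (46.2%) passed, each of them lower, with a median of -0.29. Over all transcripts 33.4% passed, and 68.1% of those calls were lower. *Ahsa1*, which speeds up the ATPase of HSP90, fell by 0.80 (SE 0.12, limma adjusted p = 0.0042). *Ptges3*, the p23 protein that stabilizes the closed HSP90 dimer, fell by 0.77 (SE 0.10, limma adjusted p = 0.0022). *Stip1*, the adaptor HOP that passes clients from HSP70 to HSP90, fell by 0.60 (SE 0.10, limma adjusted p = 0.0051). In the cytosolic chaperonin TRiC, which folds actin and tubulin, and its partner prefoldin, 4 of 13 genes (30.8%) passed, each of them lower, a share near that of all transcripts. The TRiC subunits *Cct4*, *Cct7* and *Cct5* had log2 fold changes of -0.74, -0.71 and -0.64, with limma adjusted p-values of 0.0029, 0.0037 and 0.0069.

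Mitochondrial chaperones and proteases, the compartment of *Hspd1* and *Hspe1*, held 6 genes that passed among 11 tested (54.5%), each of them lower, with a median of -0.44. Beside these stand all transcripts, of which 33.4% passed, 22.8% lower and 10.7% higher. *Hspa9*, the mitochondrial HSP70 that hands clients to the chaperonin, was at 32.8 and 31.9 RPKM at 2.8 mM and at 15.3 and 13.5 RPKM at 16.8 mM. It fell by 1.14 (SE 0.13, limma adjusted p = 0.0012), and its J-domain partner *Dnaja3* fell by 0.99 (SE 0.09, limma adjusted p = 0.00059). *Lonp1*, the matrix protease, fell by 0.95 (SE 0.12, limma adjusted p = 0.0021). The endoplasmic reticulum counterparts had 8 genes that fell and 1 that rose among 12 tested, with a median of -0.73. *Hspa5*, the HSP70 of the endoplasmic reticulum, was at 617 and 554 RPKM at 2.8 mM and at 218 and 205 RPKM at 16.8 mM. *Hspa5* had a log2 fold change of -1.46 (SE 0.13, limma adjusted p = 0.00058), beside -1.38 for the cytosolic *Hspa8*. The lectin chaperone *Calr* and the stress-induced *Sdf2l1* had log2 fold changes of -1.42 and -1.33. *Hsp90b1*, the HSP90 of this compartment, had a log2 fold change of -0.39 and an adjusted p of 0.053, beside -0.81 and -1.11 for the cytosolic HSP90 genes. Without replicate 1 or replicate 2 at 2.8 mM, its log2 fold change was -0.34 or -0.45. Without replicate 1 or replicate 2 at 16.8 mM, it was -0.37 or -0.41.

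**Figure D4:**
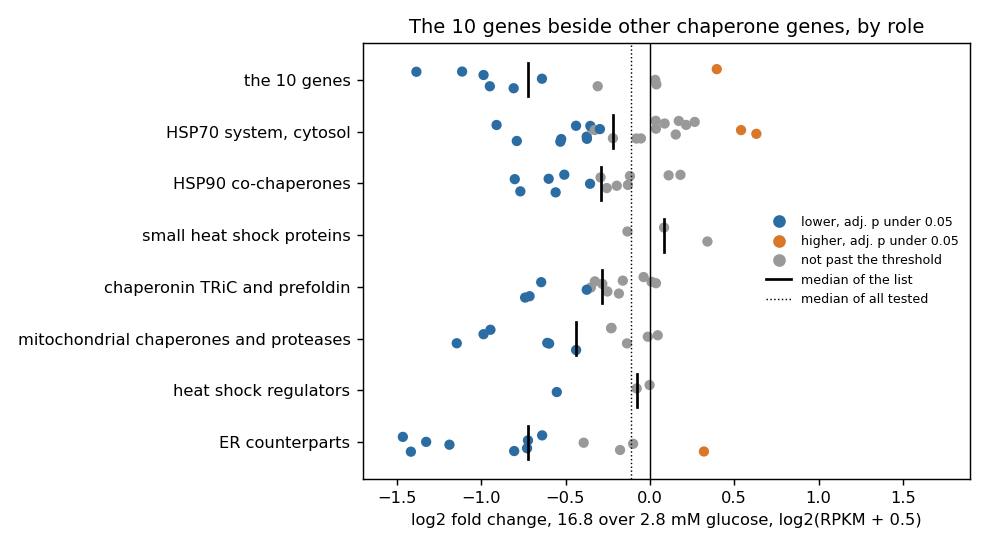
Log2 fold change at 16.8 mM over 2.8 mM glucose of log2(RPKM + 0.5), with a point for each tested gene of the 10 heat shock protein genes and of each list of other chaperone genes, a bar for the list's median and a dotted line at the median of all transcripts. The medians run from -0.73 for the endoplasmic reticulum list and -0.72 for the 10 genes to 0.08 for the other small heat shock proteins.

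Among the regulators of the heat shock response, 3 genes were expressed above the minimum and 1 of them, *Atf5*, passed. That share, 33.3%, was near the 33.4% of all transcripts that passed. *Atf5* had a log2 fold change of -0.55 (SE 0.13, limma adjusted p = 0.018). ATF5 is known as a factor that turns on mitochondrial chaperone genes. *Hsf1*, the main heat shock factor, was below the minimum of 1 RPKM on average and was not tested. It was at 1.04 and 1.06 RPKM at 2.8 mM and at 0.80 and 0.71 RPKM at 16.8 mM, lower in both 16.8 mM libraries. Its transcript level says nothing of its activity, which is set by trimerization and phosphorylation of the protein.

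Reads from these genes are not all unique to them. The share of 50-base exon windows that occur once in the mm9 genome was 23.2% for *Hspa8*, 30.6% for *Hsp90aa1*, 39.0% for *Hspa1a*, 37.7% for *Hspa1b*, 39.2% for *Hspb1*, 43.0% for *Hspd1*, 62.5% for *Hspe1* and 90.7% for *Hsp90ab1*. It was 99.2% for *Dnajb1* and 100% for *Hsph1*. Windows of the other 8 genes occur elsewhere in the genome as well, and their RPKM are uncertain to the extent that the study's counting left out or split such reads.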

How the data were processed

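RNA-seq libraries were made from islet RNA with an unstranded kit and sequenced as single reads of 50 bases. Per the study's methods, reads were aligned with STAR to mm9 and counted with bedtools; the submitters' processing notes also name DESeq. The authors deposited RPKM values for 33923 entries, normalized to length and library depth. For single-transcript genes, depth was set where the most low values (under 40 reads) were within 0.05 of whole reads over genomic spans. That share was between 66.3% and 68.1%. Over exons it was 15.9% to 17.9%, at the same depths and without a search for a depth that fits exons. This gave the depth estimates and the length used, not which reads were counted. Groups followed the samples' labels. Here, log2(RPKM + 0.5) was fitted for 7867 of 28047 distinct transcripts, those averaging 1 RPKM or more, with limma 3.58.1 (R 4.3.3; variance trend, two-sided, Benjamini-Hochberg over all transcripts); such fold changes understate those of low genes. Of these steps, only the limma fit was tested on simulated data. The 10 genes and the lists were chosen with earlier results of these data known. All 10 are described; of each list, up to 3 called genes with the largest change are named, plus *Hsf1*, *Hspa9*, *Hspa5* and *Hsp90b1*. Gene coordinates are from GENCODE vM1 (mm9) and promoters from RefSeq (GRCm38.p6). Alternatives were other scalings, minimums, pseudocounts, a replicate block, each library left out, and voom on reads rebuilt from RPKM.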

Additional observations from a re-analysis of the deposited data

How the results depend on the processing

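The falls of *Hspa8*, *Hsp90aa1*, *Hsp90ab1*, *Hspd1* and *Hspe1* kept their direction under all 15 alternatives and passed in each that kept all libraries. That of *Hsph1* kept its direction too, and lost its call without a minimum RPKM. Of the 10 genes, the fewest, 5, passed without a minimum RPKM, where 9.1% of all transcripts passed. The most, 8, passed with voom, where 46.6% of all transcripts passed. With a library left out, the median log2 fold change of the 10 genes was between -0.80 and -0.65. Those fits leave a single library in a group, so their p-values and calls cannot be set beside those of fits that kept all libraries. All transcripts that passed numbered 2628, and 8090 with voom, which tested 17360. Among other chaperones voom passed 63 of 93 tested, against 37 of 78. Leaving out a library gave 2039 to 2734 transcripts and 27 to 38 other chaperones, and a share of higher calls of 44.5% without replicate 1 at 2.8 mM against 31.9%. *Hspb1* lost its call without a minimum RPKM (adjusted p = 0.127) and with 0.1 RPKM added (adjusted p = 0.0513), and *Dnajb1* passed with voom (adjusted p = 0.0375). Same-numbered libraries deviated together with a correlation of 0.31 over transcripts, but 2 pairs do not show that the numbers pair them. With a replicate block, 4067 transcripts and 52 other chaperones passed (voom with the block: 9809, and 67 other chaperones); adjusted p-values were then 0.0264 for *Dnajb1*, 0.06 for *Hspb1*, 0.0173 for *Cryab* and 0.0297 for *Hsp90b1*. For *Hsp90b1*, only fits that kept all libraries are listed here, and the call turned with the setting. The gene also passed with voom (adjusted p = 0.0019) and without the variance trend (limma adjusted p = 0.0215). It passed with quantile normalization (adjusted p = 0.018), with median centring (adjusted p = 0.0349) and with a minimum of 1 RPKM in every library (adjusted p = 0.0394). By limma it did not pass without a minimum RPKM (adjusted p = 0.0743). With 0.1 or 1 RPKM added it did not pass either (limma adjusted p = 0.0531 and 0.0552). Keeping another entry of a gene gave no value, since each of the 10 genes has a single entry. *Hspb1* had the fewest reads, and 2 libraries per group limit every comparison.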

Other observations

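*Hspa1l*, an HSP70 gene known mainly from the testis, lies 579 bases beyond the start site of *Hspa1a* (mm9) on the opposite strand, and was looked at after its values were seen. It was at 7.64 and 4.93 RPKM at 2.8 mM and at 6.42 and 6.19 RPKM at 16.8 mM. *Hspa1l* was 4.89% and 4.86% of *Hspa1a* at 2.8 mM and 4.81% and 4.95% at 16.8 mM, so that the ratio was nearly constant over libraries in which *Hspa1a* itself ranged from 101 to 156 RPKM. Whether the 2 genes share reads was not tested.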
